A study of Homo sapiens with 12 samples.

Results

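Intergenic long non-coding RNAs, the genes whose symbols start with LINC followed by a number, were followed in HepG2 cells after knockdown of β-catenin. They were taken by symbol: 458 of the 14884 named genes on the array carried such a symbol, each represented by its probe set (the group of array probes summarised into 1 value) with the highest mean over the 12 arrays. HepG2 is an established human hepatoblastoma line, and in every group studied here 1 CTNNB1 allele lacked the exon that encodes the sites through which GSK-3 marks β-catenin for breakdown, so a stable truncated form and the full-length form were present together. The 4 groups, each of 3 arrays labelled 120 h, received a control siRNA (siCtrl) or an siRNA designed against the full-length form (si-WT), against the truncated form (si-mut) or against both (si-both). Separate cultures for the 3 samples of a group are not stated in the labels, so p-values here rest on a spread between arrays that may be only technical.

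Intergenic long non-coding RNAs are transcribed by RNA polymerase II from stretches between protein-coding genes, and most are spliced and polyadenylated like messenger RNAs. They are usually scarce and restricted to few tissues, many stay in the nucleus at their site of transcription, and the nuclear RNA exosome degrades a large part of them. Some act by bringing proteins to chromatin or by sequestering proteins or microRNAs, for some the act of transcription itself affects a neighbouring gene, a few encode micropeptides, and most have no assigned function. β-catenin is the transcriptional effector of Wnt signalling and binds DNA through TCF and LEF proteins.

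The array medians lay between 4.71 and 4.78 on the log2 scale, and replicate arrays correlated at 0.994 to 0.997 over the 14884 named genes. The 8 measured hepatocyte markers (of 10 listed) had group means of 9.34 to 13.53, whereas none of the 2 fibroblast and 4 endothelial markers measured was above the median of the array in all groups. All 3 leukocyte markers measured were above that median in all groups, with group means of 5.47 to 12.72, the highest for LYZ. PTPRC, CD3E and ITGAM were not among the named genes. The summed log2 level of the hepatocyte markers was 96.89 to 97.43 in siCtrl, 95.19 to 96.08 in si-WT, 101.62 to 102.15 in si-mut and 101.3 to 101.49 in si-both. The sum of the 5 measured cholangiocyte markers was 47.12 to 47.4, 47.38 to 48.13, 45.05 to 45.81 and 43.65 to 44.11 in the same order. Both marker sums moved with the groups in which most LINC genes were called, and their part in the LINC results was not tested. The targeted gene itself was not analysed here, so the labels were not checked against it.

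Promoter windows are shown for LINC00862, the LINC gene with the highest rise, for LINC00673, the one with the deepest fall, and for LINC00261 and LINC01341, which rose and whose windows hold forkhead letters. Each window runs 5′ to 3′ in the direction of the gene, from 250 bases before to 50 bases after the annotated start, on RefSeq's GRCh38.p14. Capitals mark matches to the letters searched on both strands, which were AACAAAG or ATCAAAG or TACAAAG or TTCAAAG for TCF/LEF, CACGTG for the E-box, TGTTTAC and TATTTAC for forkhead factors and CAAAGTCCA for HNF4. The HNF4 letters share CAAAG with the TCF/LEF letters. The windows are LINC00862 at chr1:200373743-200374042 on the minus strand, LINC00673 at chr17:72592755-72593054 on the minus strand, LINC00261 at chr20:22578593-22578892 on the minus strand and LINC01341 at chr1:246789367-246789666 on the plus strand.
LINC00862: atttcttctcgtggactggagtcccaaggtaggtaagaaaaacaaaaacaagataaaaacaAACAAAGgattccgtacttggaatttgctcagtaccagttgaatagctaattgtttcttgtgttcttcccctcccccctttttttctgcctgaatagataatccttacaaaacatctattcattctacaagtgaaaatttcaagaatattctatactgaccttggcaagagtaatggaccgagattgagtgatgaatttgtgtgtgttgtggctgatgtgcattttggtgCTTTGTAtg
LINC00673: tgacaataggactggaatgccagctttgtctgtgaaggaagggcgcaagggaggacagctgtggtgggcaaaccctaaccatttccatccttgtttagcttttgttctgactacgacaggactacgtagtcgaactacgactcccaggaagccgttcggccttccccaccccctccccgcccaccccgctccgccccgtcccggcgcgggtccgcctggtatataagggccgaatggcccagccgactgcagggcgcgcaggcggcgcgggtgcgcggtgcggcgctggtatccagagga
LINC00261: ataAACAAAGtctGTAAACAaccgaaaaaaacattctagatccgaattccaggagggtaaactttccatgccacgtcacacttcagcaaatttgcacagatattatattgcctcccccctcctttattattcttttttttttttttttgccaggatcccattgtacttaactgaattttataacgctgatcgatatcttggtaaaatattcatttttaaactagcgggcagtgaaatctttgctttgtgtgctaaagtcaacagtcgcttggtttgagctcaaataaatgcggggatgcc
LINC01341: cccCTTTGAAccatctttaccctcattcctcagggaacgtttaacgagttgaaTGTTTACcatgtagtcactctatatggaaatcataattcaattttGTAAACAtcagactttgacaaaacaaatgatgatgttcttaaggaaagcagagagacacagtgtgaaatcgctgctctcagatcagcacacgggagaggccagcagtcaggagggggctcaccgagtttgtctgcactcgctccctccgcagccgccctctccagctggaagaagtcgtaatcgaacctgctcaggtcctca

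The LINC00862 window held TCF/LEF letters at bases 62 to 68 and, on the opposite strand, at bases 292 to 298. The LINC00673 window held none of the searched letters. In the LINC00261 window TCF/LEF letters at bases 4 to 10 were followed by forkhead letters at bases 14 to 20 on the opposite strand. The LINC01341 window held TCF/LEF letters at bases 4 to 10 on the opposite strand and forkhead letters at bases 54 to 60 and, on the opposite strand, 99 to 105. Windows were found for 326 of the 458 LINC genes, and 132 had no entry. TCF/LEF letters were in 58 of these 326 windows (17.8%), against 13.9% of all 27305 windows of the same length. They were in 2 of 15 windows of LINC genes that fell after si-mut and in 4 of 20 of those that rose. Forkhead letters were in 8.59% of LINC windows, in 6.05% of all windows, in 4 of the 20 for LINC genes that rose after si-mut and in 1 of the 15 for those that fell. E-box letters were in 7.06% of LINC windows and 7.43% of all. A match describes letters in the window and is not a bound site.

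Most LINC genes lay under the middle of the array. The floor was taken as the median of all probe sets over all arrays, 4.74 on the log2 scale. It is the middle of all probe sets by definition and not a measured background or detection level. Group means above the floor were found for 143 LINC genes in siCtrl, 144 in si-WT, 143 in si-mut and 142 in si-both, so the number off the floor differed by at most 2 genes between groups. In all, 157 (34.3%) were above it in at least 1 group and 133 in all 4, while 301 were never above it. The corresponding share with at least 1 group above the floor was 78.1% for protein-coding genes, 50.9% for antisense RNAs and 71.3% for all named genes. Only 42 LINC genes exceeded the 75th percentile of all probe sets, 6.60, in any group. The mean log2 level had a median of 4.14 over LINC genes and 6.01 over all genes, with 90% of LINC genes under 6.10. Probes differ in how brightly they report the same amount of RNA, so these are shares of probe sets and not a ranking of transcripts. RMA, the method behind the deposited values, compresses differences near the floor, and a fold of a dim LINC gene is read with that limit.

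**Figure D1:**
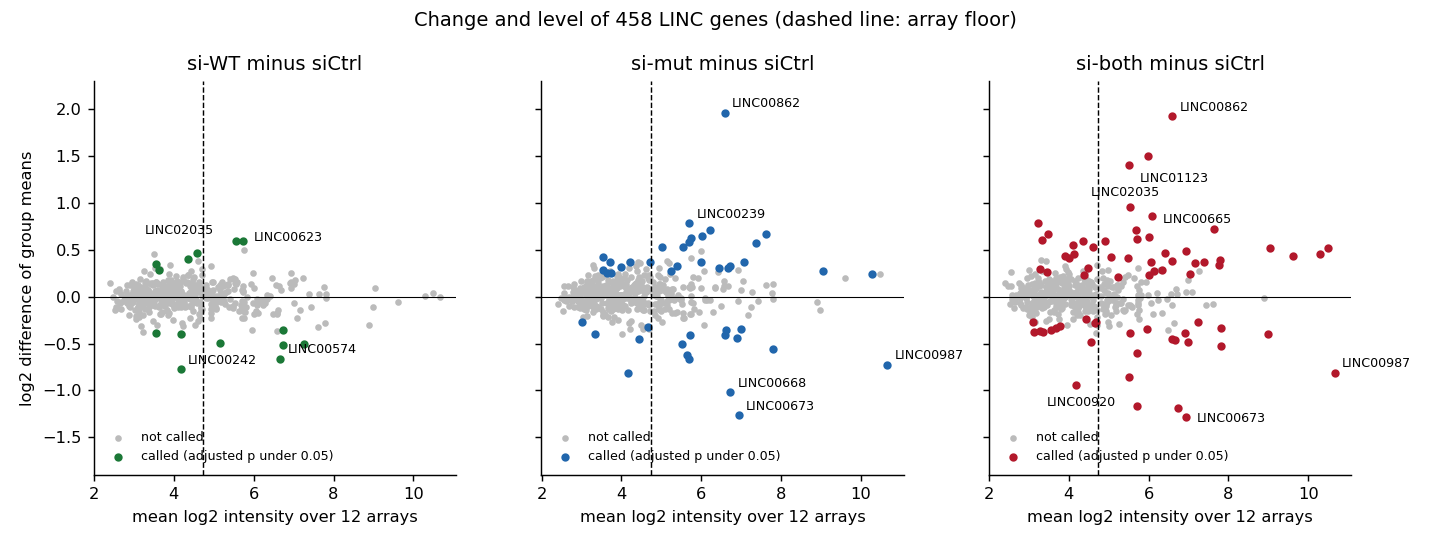
Each point is 1 of 458 LINC genes, plotted by its mean log2 intensity over 12 arrays (x axis) and its log2 difference from siCtrl (y axis) for si-WT, si-mut and si-both; coloured points were called by limma at adjusted p under 0.05 and the dashed line is the floor at 4.74. Most points lie left of the floor, and 14, 44 and 70 points are coloured in the 3 panels.

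A gene was called where the adjusted p of limma's moderated test was under 0.05, with Benjamini-Hochberg adjustment over all 14884 genes within a comparison. After si-WT 14 LINC genes (3.06%) were called, 6 higher and 8 lower, where 10.2% of all genes were called, 5.2% higher and 4.97% lower. After si-mut 44 LINC genes (9.61%) were called, 27 higher and 17 lower, where 25.6% of all genes were called, 12% higher and 13.6% lower. After si-both 70 LINC genes (15.3%) were called, 42 higher and 28 lower, against a background of 33.6%, with 15.5% higher and 18.1% lower. With each array centred on its median the splits were 21 higher and 20 lower after si-mut and 36 higher and 33 lower after si-both, so the excess of higher over lower calls depended on the scaling. The LINC share was under that of all genes in each comparison with siCtrl and followed the same order. The 3 comparisons share the same siCtrl arrays, and in bulk RNA a transcript present in fewer cells and one less abundant per cell cannot be told apart. The median log2 change over all 458 was -0.00 for si-WT, 0.02 for si-mut and 0.02 for si-both, beside 0.01, 0.01 and -0.01 over all genes. Of the called LINC genes 0, 3 and 6 of the 458 had moved at least 2-fold. Over all genes, 79, 308 and 584 of 14884 were called and had moved as far. The number of LINC genes called after si-WT was the least stable of the 3. It was 5 without si-WT replicate 3, 7 without siCtrl replicate 2 or siCtrl replicate 3, and 8 without si-WT replicate 2. The share of all genes called was lower in these fits too, from 6.16% to 6.97%.

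Knockdowns were also set against each other. Between si-mut and si-WT 50 LINC genes (10.9%) were called, 26 higher in si-mut and 24 lower, with a background of 31.0%, of which 14% higher and 17.0% lower; with median centring the split turned to 23 higher and 29 lower. Between si-both and si-WT 67 (14.6%) were called, 40 higher in si-both and 27 lower, with a background of 36.2%, of which 16.1% higher and 20.1% lower. Between si-both and si-mut 42 (9.17%) were called, 26 higher in si-both and 16 lower, with a background of 22.2%, of which 10.6% higher and 11.6% lower; this last count was 22 without si-both replicate 3, 25 without si-mut replicate 2 and 26 without si-mut replicate 3, 19 with only these groups in the fit and 26 with array weights. At least 1 of the 6 comparisons called 127 LINC genes, and 58 of these had a mean level at or under the floor. The same numbers were not counted over all genes, so these counts have no background here.

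The shares were also read separately by level. Among the 139 LINC genes with a mean level above the floor, 5.04% were called for si-WT, 22.3% for si-mut and 32.4% for si-both. The shares over all 10265 named genes above the floor were 14%, 35.0% and 44.9%. Antisense RNAs above the floor gave 10.6%, 20.0% and 27.7%, and protein-coding genes 14.8%, 37.2% and 47.3%. At or under the floor the LINC shares were 2.19%, 4.08% and 7.84%, beside 1.75%, 4.61% and 8.42% over all genes. In the comparisons of si-mut with si-WT, si-both with si-WT and si-both with si-mut, 24.5%, 28.8% and 20.1% of the LINC genes above the floor were called, beside 42.1%, 48.3% and 29.6% of all genes above it and 6.34%, 9.27% and 5.52% of all genes at or under it. Above the floor the LINC shares thus stood between those of antisense RNAs and of protein-coding genes after si-mut and si-both and under both after si-WT, and at or under it they were near those of all genes; these differences between classes were not tested.

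**Figure D2:**
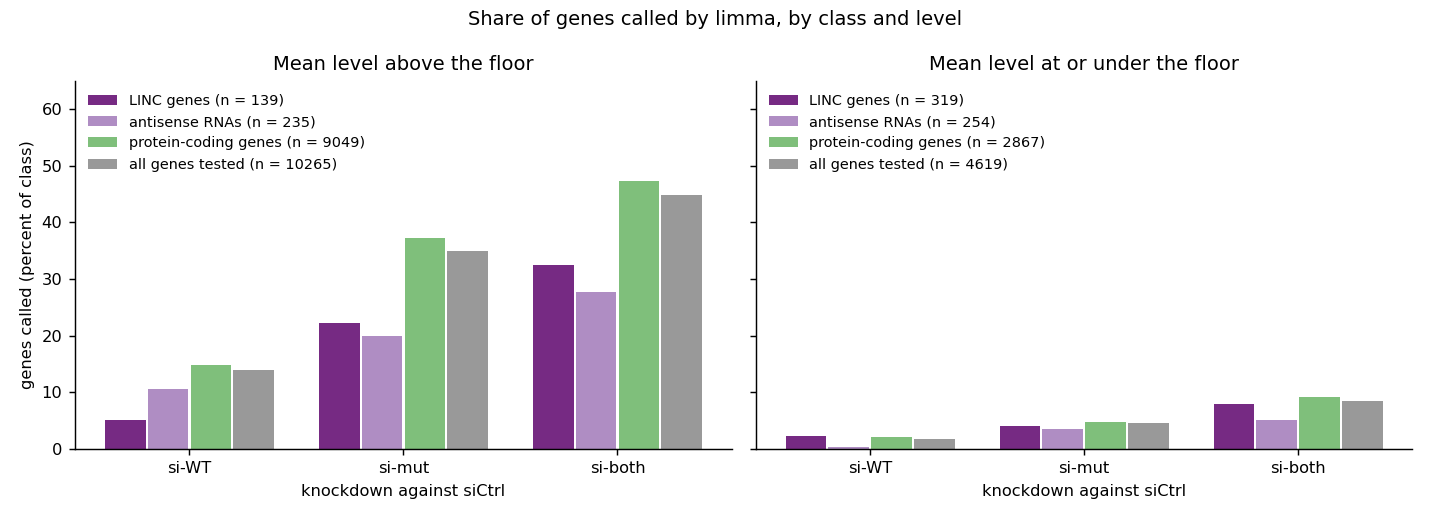
Bars give the percent of genes called by limma (y axis, from 0) in each knockdown against siCtrl (x axis) for LINC genes, antisense RNAs, protein-coding genes and all genes tested, split by mean level above (left) or at or under the floor (right). The purple LINC bars reach 22.3% and 32.4% on the left and 4.08% and 7.84% on the right after si-mut and si-both.

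The siRNAs against the truncated form gave the highest rise and the deepest fall among LINC genes. LINC00862 lies on chromosome 1 next to ZNF281. Its 3 siCtrl samples read 5.42, 5.66 and 6.07 on the log2 scale and its si-WT samples 5.10, 5.43 and 5.50. The si-mut samples read 7.44, 7.77 and 7.82 and the si-both samples 7.37, 7.85 and 7.70. All 6 samples that received si-mut or si-both lay above all 6 that did not. LINC00862 rose by 1.96 ± 0.17 (SE) on the log2 scale after si-mut, 3.9-fold, with an adjusted p of 2.11e-06, and by 1.93 ± 0.17 after si-both, with an adjusted p of 1.39e-06. Its difference after si-WT was -0.37 with an adjusted p of 0.231.

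LINC00673, reported in pancreatic carcinoma and transcribed from the long interval beyond SOX9 on chromosome 17, moved the other way. Its siCtrl samples read 7.49, 7.57 and 7.48 and its si-WT samples 7.94, 7.62 and 7.75. The si-mut samples read 6.16, 6.47 and 6.11 and the si-both samples 6.10, 6.38 and 6.21. The groups with and without knockdown of the truncated form did not overlap. LINC00673 fell by 1.27 ± 0.11 on the log2 scale after si-mut (adjusted p 2.1e-06) and by 1.28 ± 0.11 after si-both (adjusted p 1.07e-06), 2.41-fold and 2.43-fold. The si-mut level was 1.52 under that of si-WT, with an adjusted p of 2.21e-07.

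SOX9, the transcription factor gene that is the nearest measured protein-coding neighbour of LINC00673 on one side, had siCtrl, si-mut and si-both means of 10.76 ± 0.02, 9.88 ± 0.03 and 9.21 ± 0.21 (SD, n = 3). It fell by 0.88 after si-mut and by 1.55 after si-both, with adjusted p of 1.11e-05 and 4.75e-08. SSTR2, the measured neighbour on the other side, was called in neither. LINC00511, a second LINC gene between the same neighbours, was read by a pair of probe sets that differed. The one used in the counts had the higher mean over all arrays. It was the dimmer of the pair in siCtrl and si-WT, with means of 5.69 and 5.63 against 6.45 and 6.18. In si-mut and si-both it was the brighter, at 5.52 and 5.30 against 5.23 and 4.27. It gave a change after si-both of -0.39 with an adjusted p of 0.0482, which reached 0.194 with 1 array left out. The other read 6.36, 6.67 and 6.32 in siCtrl, 6.10, 6.10 and 6.33 in si-WT, 5.39, 5.22 and 5.08 in si-mut, and 4.37, 4.33 and 4.10 in si-both, with no overlap between si-mut, si-both and the rest. With the mean of both probe sets LINC00511 fell by 1.29 after si-both, with an adjusted p of 1.59e-06.

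LINC00668 on chromosome 18 fell in every knockdown. It read 7.46, 7.41 and 7.36 in siCtrl, 7.12, 6.62 and 6.93 in si-WT, 6.72, 6.06 and 6.39 in si-mut and 6.22, 6.29 and 6.15 in si-both. Each knockdown group lay wholly under siCtrl, while the si-WT and si-mut samples overlapped. The changes were -0.52, -1.02 and -1.19 with adjusted p of 0.0403, 0.000167 and 2.76e-05. The si-WT call was lost, for example, without si-WT replicate 2, with an adjusted p of 0.181.

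LINC00920 on chromosome 16 fell in steps. Its siCtrl samples read 6.16, 6.25 and 6.26, its si-WT samples 5.93, 5.81 and 6.24, its si-mut samples 5.63, 5.58 and 5.44 and its si-both samples 5.02, 5.25 and 4.90. Those of si-both lay under those of si-mut, and those of si-mut under those of the other two groups. The change was -0.67 ± 0.11 after si-mut (adjusted p 0.000559) and -1.16 ± 0.11 after si-both (adjusted p 3.1e-06), and the difference of si-both from si-mut was -0.49 with an adjusted p of 0.00621, which became 0.0588 without the first si-mut and si-both arrays. LINC02381, which lies beyond HOXC4 in the direction of SMUG1 on chromosome 12, read 5.83, 5.77 and 5.85 in siCtrl, 6.09, 6.29 and 5.63 in si-WT, 5.28, 5.50 and 5.15 in si-mut and 5.11, 5.02 and 4.74 in si-both. The si-mut and si-both samples lay under all others and did not overlap each other. Its changes were -0.51 (adjusted p 0.0226, and 0.0925 without si-mut replicate 3) and -0.86 (adjusted p 0.000438), and the difference between si-both and si-mut was -0.35 with an adjusted p of 0.114. Further LINC genes that fell after both si-mut and si-both were LINC00958 (-0.41 and -0.60), LINC00933 (-0.56 and -0.34) and LINC00857 (-0.44 and -0.39), and the si-both calls of LINC00933 and LINC00857 were lost in some alternatives, with adjusted p up to 0.35 and 0.0844. The si-mut call of LINC00857 was lost without siCtrl replicate 3 (adjusted p 0.0512). A second, dimmer probe set of LINC00933 gave -0.13 after si-mut and 0.09 after si-both.

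LINC00987, on chromosome 12 between PZP and CD69, had the highest value of all LINC genes. It read 11.07, 11.09 and 10.97 in siCtrl, 10.96, 10.91 and 11.26 in si-WT, 10.45, 10.14 and 10.38 in si-mut and 10.44, 10.24 and 10.03 in si-both. The si-mut and si-both samples all lay under the others, and the change was -0.72 ± 0.12 after si-mut (adjusted p 0.000477) and -0.81 after si-both (adjusted p 0.000117). A second, dimmer probe set of LINC00987 with a siCtrl mean of 5.84 gave -0.10 and -0.28 for the same comparisons.

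Among LINC genes that rose with si-mut, LINC00261 is transcribed beside FOXA2, an endoderm and liver transcription factor gene, and is known from endoderm differentiation. LINC00261 read 7.20, 7.14 and 7.08 in siCtrl, 7.15, 7.10 and 7.25 in si-WT, 7.74, 7.73 and 7.66 in si-mut and 7.45, 7.55 and 7.52 in si-both. The si-mut samples were highest, the si-both samples next, and neither overlapped the remaining arrays. LINC00261 rose by 0.57 ± 0.07 after si-mut (adjusted p 3.94e-05) and by 0.36 ± 0.07 after si-both (adjusted p 0.000897), and the difference between these groups was -0.20 with an adjusted p of 0.0504. FOXA2 itself gave -0.01 and -0.14, with adjusted p of 0.95 and 0.157.

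LINC00674 on chromosome 17 read 7.17, 7.21 and 7.43 in siCtrl, 7.09, 7.36 and 7.47 in si-WT, 7.99, 7.94 and 7.88 in si-mut and 7.95, 7.99 and 8.05 in si-both. It rose by 0.67 (adjusted p 0.000194) and by 0.73 (adjusted p 5.73e-05), with no overlap. LINC00239 on chromosome 14 read 5.36, 5.45 and 5.28 in siCtrl, 5.14, 5.4 and 5.4 in si-WT, 5.93, 6.32 and 6.18 in si-mut and 5.83, 6.02 and 6.07 in si-both. It rose by 0.78 (adjusted p 0.000129) and 0.61 (adjusted p 0.00055), again without overlap. LINC01341 and LINC01277 each lie between one measured neighbour that rose and one that fell in at least 1 of these comparisons. LINC01341 read 5.27, 5.34 and 5.55 in siCtrl, 5.41, 5.39 and 5.09 in si-WT, 6.03, 5.82 and 6.06 in si-mut and 6.18, 5.96 and 6.13 in si-both, so that the si-mut and si-both samples all lay above the rest. The changes were 0.58 and 0.71, those of its neighbour SCCPDH 0.59 and 0.64, and those of AHCTF1 on its other side -0.36 and -0.48, all called. LINC01277 rose by 0.65 and 0.64 (adjusted p 0.0027 and 0.00207) and its neighbour AIG1 by 0.71 and 1.01, while HIVEP2 on its other side gave 0.08 (adjusted p 0.775) and -0.55 (adjusted p 0.014).

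**Figure D3:**
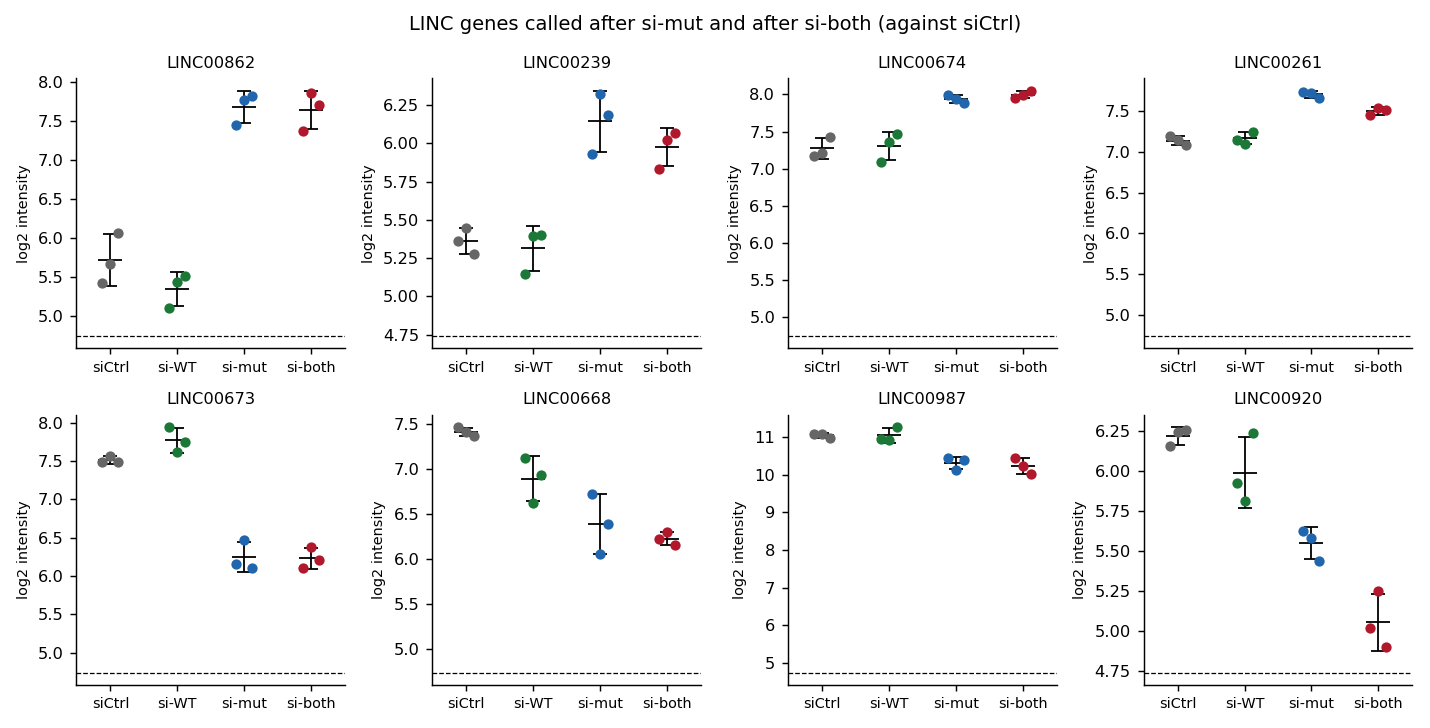
Log2 intensity (y axis) of 8 LINC genes in each array of the 4 siRNA groups (x axis); points are arrays, horizontal bars mean and SD of 3 arrays, the dashed line the floor at 4.74. The si-mut and si-both points lie above the other 6 in the upper row and, except LINC00668, under the other 6 in the lower row, where 1 si-mut array of LINC00668 overlaps si-WT.

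In a smaller set the si-both arrays stood apart from each of the other 3 groups. LINC01123 on chromosome 2 read 5.17, 5.08 and 5.22 in siCtrl, 5.42, 5.26 and 5.05 in si-WT, 5.36, 4.69 and 5.19 in si-mut, and 6.96, 6.80 and 5.91 in si-both. Replicate 3 was the lowest si-both sample but still lay above all 9 other arrays. The change was 1.40 ± 0.23 against siCtrl, 2.64-fold, with an adjusted p of 0.000262, 1.32 against si-WT with 0.000372, and 1.48 against si-mut with 0.000385.

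LINC00665, reported to encode a micropeptide, read 5.92, 6.08 and 5.72 in siCtrl, 5.91, 5.81 and 5.73 in si-WT, 5.87, 5.87 and 5.92 in si-mut and 6.69, 6.73 and 6.88 in si-both. Its si-both samples lay above all others and the other groups overlapped. It rose by 0.86 ± 0.09 against siCtrl (adjusted p 7.11e-06), by 0.95 against si-WT (adjusted p 2.16e-06) and by 0.88 against si-mut (adjusted p 1.65e-05). A second probe set of LINC00665 gave only 0.12 after si-both, and the mean of both 0.49. LINC00278 rose by 1.5 after si-both with an adjusted p of 4.21e-05, 2.82-fold. Its si-both samples read 6.72, 6.98 and 7.06 and the other 9 arrays 5.0 to 5.99. LINC00470 rose by 0.79 (adjusted p 0.0001) but every value stayed under the floor.

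LINC00963, first described in prostate cancer cells, moved down in the same arrays. It read 8.08, 7.88 and 7.87 in siCtrl, 8.12, 7.90 and 7.89 in si-WT, 7.91, 8.02 and 7.81 in si-mut and 7.29, 7.54 and 7.42 in si-both. Its si-both samples were all under the other 9. The difference was -0.53 from siCtrl (adjusted p 0.000694), -0.55 from si-WT (adjusted p 0.000407) and -0.50 from si-mut (adjusted p 0.00216).

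LINC02035 on chromosome 3 rose in all knockdowns and most with both forms targeted. It read 5.04, 4.88 and 5.16 in siCtrl, 5.42, 5.72 and 5.70 in si-WT, 5.58, 5.54 and 5.55 in si-mut and 6.02, 5.99 and 5.93 in si-both. The siCtrl samples were lowest, si-WT and si-mut shared a range and si-both was highest. The changes were 0.59, 0.53 and 0.96 with adjusted p of 0.00103, 0.000669 and 2.87e-06. The si-both level was also higher than that of si-WT by 0.37 (adjusted p 0.00591) and than that of si-mut by 0.42 (adjusted p 0.00455).

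A further 3 LINC genes were called after si-mut and differed again between si-both and si-mut. LINC00870, between PROK2 and RYBP on chromosome 3, read 5.97, 6.16 and 6.11 in siCtrl, 6.17, 5.93 and 5.88 in si-WT, 6.51, 6.93 and 6.96 in si-mut and 6.07, 5.95 and 6.13 in si-both. It was high in the si-mut samples alone, 0.72 above siCtrl (adjusted p 0.000468), and si-both differed from si-mut by -0.75 (adjusted p 0.000446). LINC01091 read 5.32, 5.48 and 5.80 in siCtrl, 5.81, 5.86 and 6.43 in si-WT, 5.92, 6.14 and 6.39 in si-mut and 5.25, 5.27 and 5.35 in si-both. Its si-WT and si-mut samples shared the highest range, and siCtrl overlapped si-both. The si-mut change was 0.62 (adjusted p 0.0124, and up to 0.0614 with 1 array left out) and the difference of si-both from si-mut was -0.86 with an adjusted p of 0.00187. LINC02249 gave the reverse, -0.62 after si-mut (adjusted p 0.00904) and 0.82 between si-both and si-mut (adjusted p 0.00179), with si-mut samples at 5.57, 5.14 and 4.78 and si-both samples at 5.96, 5.86 and 6.13.

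**Figure D4:**
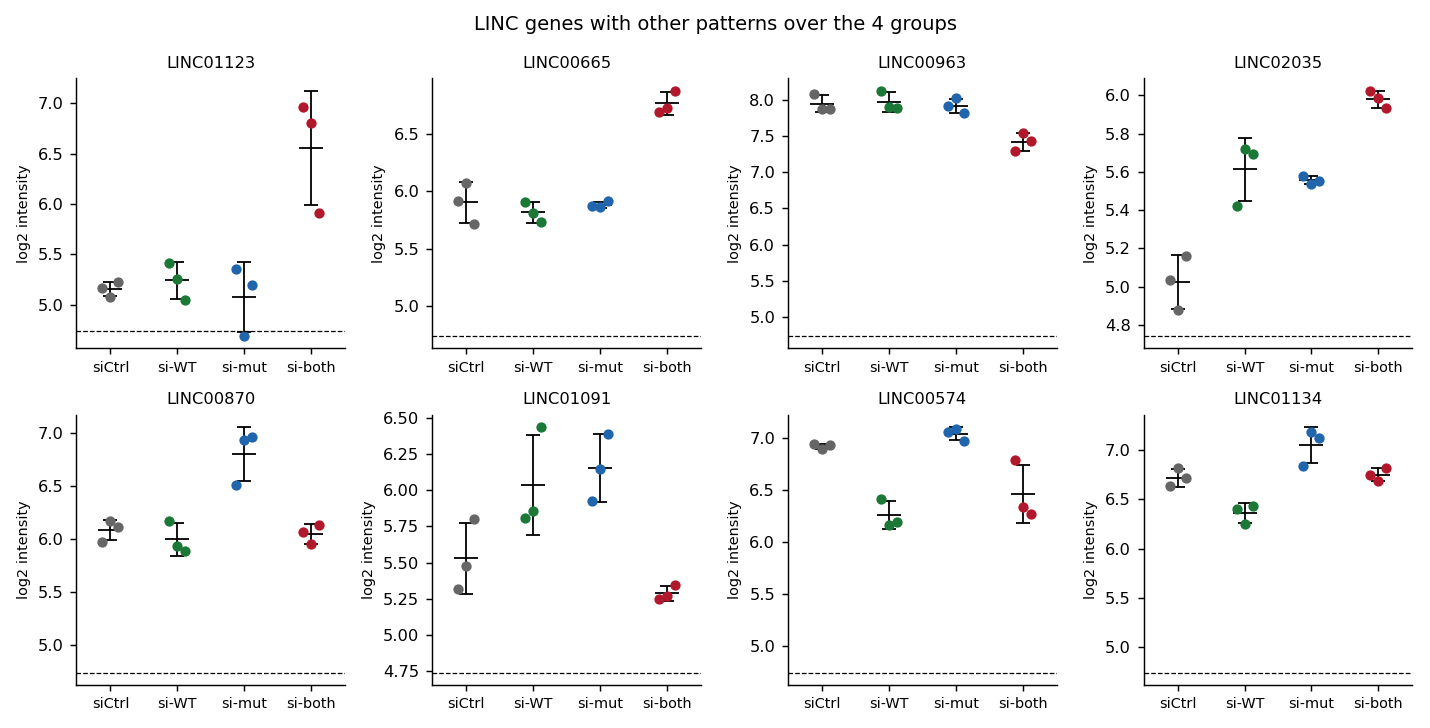
Log2 intensity (y axis) of 8 LINC genes in each array of the 4 siRNA groups (x axis); points are arrays, horizontal bars mean and SD of 3 arrays, the dashed line the floor at 4.74. In the first 3 panels the si-both points stand apart from the other 9, LINC00870 is high in si-mut alone, and LINC00574 is low in si-WT and si-both.

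Loss of the full-length form alone moved few LINC genes, and the 14 called lay between -0.77 and 0.59. LINC00242 and LINC00574 lie next to each other between ERMARD and DLL1 on chromosome 6, and both fell after si-WT. LINC00574 read 6.94, 6.89 and 6.93 in siCtrl, 6.42, 6.16 and 6.20 in si-WT, 7.06, 7.09 and 6.97 in si-mut and 6.79, 6.33 and 6.27 in si-both. It was low in the groups whose siRNA targets the full-length form, and the si-WT and si-both samples overlapped each other but not the rest. Its change was -0.66 after si-WT (adjusted p 0.00252) and -0.46 after si-both (adjusted p 0.0073), and si-mut exceeded si-WT by 0.78 (adjusted p 0.000156). LINC00242 read 4.63, 4.66 and 5.12 in siCtrl and 3.71 to 4.32 in the other 9 arrays. It fell by 0.77, 0.81 and 0.94 on the log2 scale in the knockdowns si-WT, si-mut and si-both (adjusted p 0.00383, 0.000946 and 0.000188), from a siCtrl level at the floor. ERMARD and DLL1 were not called after si-WT, at 0.06 and -0.01.

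LINC01342 fell by 0.49 after si-WT (adjusted p 0.00323) and was not called after si-mut or si-both. These 3 and LINC02035 were the 4 LINC genes of the 14 that kept the si-WT call in every alternative in which they were tested; LINC00242 and LINC01342 were too dim to enter the fit without dim genes. LINC00526 read 7.35, 7.29 and 7.31 in siCtrl and 7.16, 6.54 and 6.75 in si-WT, a change of -0.50 with an adjusted p of 0.0327 that reached 0.153 without si-WT replicate 2. The si-both samples, 7.74, 7.54 and 7.48, lay above siCtrl without being called (0.27, adjusted p 0.16), and si-both exceeded si-WT by 0.77 (adjusted p 0.000452). ZBTB14, a neighbour of LINC00526, differed by -0.47 and -0.69 after si-mut and si-both. The remaining calls after si-WT were LINC00623 (0.59), LINC03033 (0.46), LINC01139 (0.40), LINC00499 (0.35) and LINC01020 (0.29) upward and LINC00622 (-0.40), LINC02396 (-0.38), LINC00668 and LINC01134 downward. Of these, LINC03033, LINC01139, LINC00499, LINC01020, LINC00622 and LINC02396 had a mean level under the floor.

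LINC01134, next to C1orf174 on chromosome 1, was the LINC gene called in opposite directions by the knockdowns of the single forms. It read 6.63, 6.82 and 6.72 in siCtrl, 6.41, 6.25 and 6.44 in si-WT, 6.84, 7.18 and 7.13 in si-mut and 6.75, 6.69 and 6.82 in si-both. The si-WT samples were lowest, the si-mut samples highest, and siCtrl and si-both lay between them. Its change was -0.36 ± 0.10 after si-WT (adjusted p 0.0291) and 0.33 ± 0.10 after si-mut (adjusted p 0.0209), calls that were lost with adjusted p of 0.131 without si-WT replicate 2 and 0.0961 without si-mut replicate 2. After si-both the difference was 0.03 with an adjusted p of 0.861. C1orf174 gave -0.34 after si-WT with an adjusted p of 0.0105.

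Of the brightest LINC genes, 4 moved together. LINC00999, LINC01000, LINC01061 and LINC01347 had mean levels of 9.05 to 10.48 and were read by 4, 3, 7 and 6 probe sets. Against siCtrl they differed by 0.52, 0.45, 0.43 and 0.52 after si-both, with adjusted p of 3.52e-05, 0.000189, 0.000313 and 0.000424. After si-mut they differed by 0.27, 0.24, 0.20 and 0.24, of which LINC00999 and LINC01000 were called, a call that both lost with the mean of their probe sets. All 20 probe sets were above siCtrl after si-both, from 0.20 to 0.60 with a median of 0.45, and 19 of 20 after si-mut with a median of 0.20. After si-WT 13 of 20 were above siCtrl, with a median of 0.01. Over the 12 arrays the levels of any pair of these genes correlated at 0.924 to 0.974, and the deviations from group means at 0.311 to 0.915; these arrays share groups, so the first range contains the group differences. Sequence shared between such genes would be read by the same probes; probe sequences were not used here, so the 4 cannot be told apart as independent transcripts. The other bright genes LINC02525 and LINC01002, at mean levels of 8.98 and 8.90, gave -0.39 (adjusted p 0.0136, and 0.0615 without si-both replicate 2) and -0.01 (adjusted p 0.969) after si-both.

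**Figure D5:**
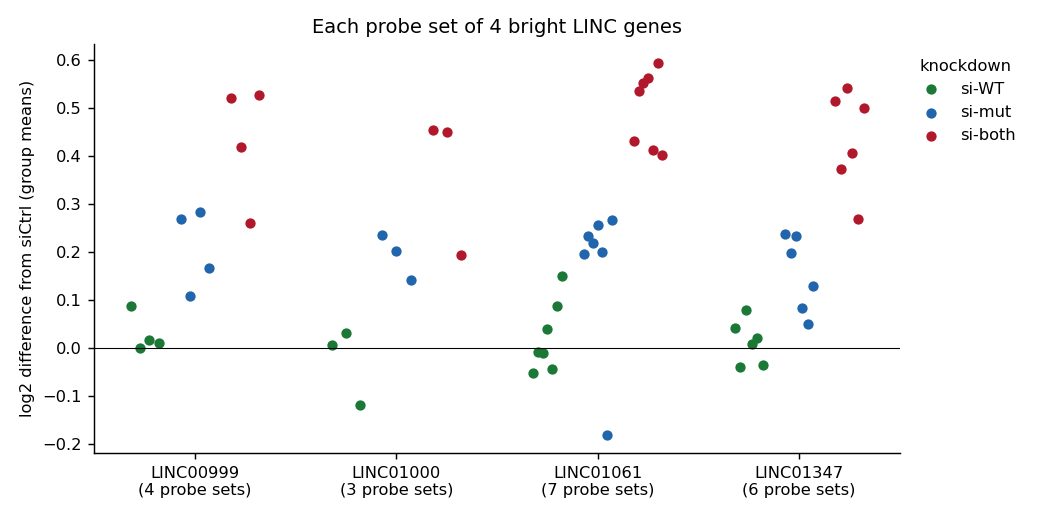
Log2 difference of group means from siCtrl (y axis) for each probe set of 4 bright LINC genes (x axis), by knockdown; each point is 1 probe set, with no error shown. All 20 si-both points lie above 0, from 0.20 to 0.60, and the si-WT points lie on both sides of 0.

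Of 20 LINC genes listed for a role in the literature, 14 were measured under that name. One of them was called lower after si-WT, 2 higher after si-mut, and 2 higher and 2 lower after si-both, a share of 7.14%, 14.3% and 28.6% beside 10.2%, 25.6% and 33.6% of all genes. Besides LINC00261, the call after si-mut was LINC00467, also reported to encode a micropeptide, at 0.30 with an adjusted p of 0.0162 that reached 0.079 in other fits. The liver-enriched LINC01018, LINC01093 and LINC01554 were called in no comparison with siCtrl with the probe sets used. With the mean of their probe sets, LINC01093 and LINC01554 were called after si-both, at adjusted p of 0.0255 and 0.018, and the second, dimmer probe set of LINC01554 gave 0.47 against 0.16 for the one used. LINC01093 was 0.39 higher in si-both than in si-mut (adjusted p 0.00946). LINC00473, known as a CREB-induced RNA, and LINC00460 were under the floor, with changes of 0.09 to 0.29 and no call. LINC00324 (-0.13, -0.18 and -0.18), at a mean level of 5.72, was not called in any of the 6 comparisons.

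The nearest measured protein-coding genes on each side were read for the named LINC genes. Around the 24 named LINC genes called after si-mut there were 48 such positions, of which 14 held a called gene, 8 moving in the direction of the LINC gene and 6 against it. Around 29 called after si-both there were 58, of which 21 held a called gene, 10 in the same and 11 in the opposite direction. Around the 14 called after si-WT there were 28 and 1 called gene, which moved in the same direction. The share of all genes called in these comparisons was 25.6%, 33.6% and 10.2%. For protein-coding genes, the only kind read as neighbours, it was 29.4%, 38.1% and 11.8%. Between si-mut and si-WT 21 of 52 positions held a called gene, 17 in the direction of the LINC gene and 4 against it, where 31.0% of all genes were called. Between si-both and si-WT the figures were 33 of 66, 17 and 16, with a background of 36.2%. Between si-both and si-mut they were 8 of 36, 3 and 5, with a background of 22.2%. The shares of protein-coding genes called in these last 3 comparisons were 35.3%, 41.1% and 25.2%. A coding gene that flanks several LINC genes, as SOX9 does, counts at each position. Unmeasured coding genes can lie between a LINC gene and the neighbour read here.

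Long non-coding RNAs with other names included larger changes. Of 62 on a list, 41 were measured, and 6 (3 higher, 3 lower) were called after si-WT, 19 (8 higher, 11 lower) after si-mut and 19 (8 higher, 11 lower) after si-both, 46.3% in each of the last pair. The share of all genes called was 10.2%, 25.6% and 33.6%. Of the 41, 28 had a mean level above the floor, and 28 were above it in all 4 groups. Among the 28 with a mean level above the floor 21.4%, 67.9% and 67.9% were called, and the other 13 had no call. Over all genes above the floor the shares were 14%, 35.0% and 44.9%. Differences between these shares were not tested. HULC, an RNA abundant in hepatocellular carcinoma, read 7.58, 7.54 and 7.51 in siCtrl, 7.07, 6.66 and 6.63 in si-WT, 8.73, 8.65 and 8.49 in si-mut and 10.02, 10.24 and 10.16 in si-both, with no overlap between any groups. Its changes were -0.76, 1.07 and 2.59, which for si-both exceeds that of every LINC gene. UCA1 rose by 1.59, 1.15 and 2.36. GAS5 and DANCR, hosts of small nucleolar RNAs, fell after si-mut by 0.94 and 1.19 and after si-both by 1.31 and 1.01.

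Genes of nuclear RNA decay, the machinery that degrades many intergenic transcripts, were lower after si-mut where they were called. Of 31 listed, 23 were measured, and 15 were lower and 0 higher after si-mut, with a median log2 change of -0.31 beside 0.01 over all genes, of which 13.6% were called lower. The other 8 were not called, and all 23 lay above the floor, where 35.0% of genes were called in either direction. After si-both 13 were lower and 1 higher, with a median of -0.24, and after si-WT 1 was lower and 0 higher. The exosome subunit gene EXOSC5 had means of 9.04 in siCtrl, 7.82 in si-mut and 7.51 in si-both, and EXOSC2 of 9.23, 8.28 and 8.10. The median LINC change in the same comparisons was 0.02 and 0.02. Whether these transcripts and the LINC genes are related was not tested.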

How the data were processed

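Biotin-labelled cDNA from total RNA of 12 HepG2 samples was hybridised to Affymetrix arrays, 3 per siRNA group, with groups and replicate numbers from the sample titles. The authors deposited log2 intensities of 53617 probe sets, for which the submitters' processing notes name RMA and the software Affymetrix Expression Console 1.1. The method corrects background and equalises the arrays, which would hide a shift common to most genes. The log2 scale was read from the values; the annotation build is not given in the sources used here.

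Of the probe sets 16098 carried 1 symbol, 0 several, and 37519 were unlisted and left unnamed; all 16098 identifiers matched the reference gene table. LINC symbols covered 545 probe sets and 458 genes, 52 of them with several probe sets. All 14884 genes were fitted with limma 3.58.1 (R 4.3.3; lmFit and eBayes, group means over all 12 arrays) and Benjamini-Hochberg adjustment within a comparison, two-sided, called under 0.05; the code was tested on simulated data. The number of arrays limits the precision.

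Named were the 8 highest and 8 lowest called LINC genes of each knockdown against siCtrl and of si-mut against si-WT, the 4 of each for si-both against the others, the 8 brightest, and a literature list. Members and lists were chosen with earlier results of these data known. Alternatives were quantile renormalisation, median centring, a filter on dim genes, the mean of probe sets, trended and robust priors, fits of only the groups compared, array weights, a replicate block and leaving arrays out. All main values are without a replicate block, which was fitted as an alternative for each comparison. Deviations of same-numbered arrays from their group means correlated at 0.115, 0.155 and 0.134 for si-both against si-WT. The 3 pairs were also all positive in every other comparison except si-both against siCtrl (0.00129, -0.047 and 0.12). The highest value was 0.189, in si-WT against siCtrl. This rests on the data, not on the labels.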

Additional observations from a re-analysis of the deposited data

Results flagged for a closer look

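LINC01134 is listed because the knockdowns of the full-length and of the truncated form moved it in opposite directions against siCtrl, by -0.36 and 0.33. The direct comparison gave a difference of 0.69 on the log2 scale, si-mut over si-WT, with an adjusted p of 7.96e-05 by limma. All 3 si-mut samples lay above all 3 si-WT samples. This comparison uses the same arrays by which the gene was picked, so it is no independent support. The calls against siCtrl were lost with 1 array left out, at adjusted p of up to 0.131 for si-WT and 0.0961 for si-mut.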

How the results depend on the processing

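No called change of a named LINC gene turned its sign in any alternative in which it was tested, but no alternative used the other probe sets singly. Among all called LINC genes with several probe sets, every probe set had the same sign in 8 of 9 after si-mut. This held for 12 of 15 after si-both and for the 1 such gene after si-WT. Median centring moved the balance of higher and lower calls, as given with the counts, and changes that were not called could switch sign. Leaving out dim genes kept 89 of the 458 LINC genes in the fit. Of these 89, 9 were called after si-WT, 34 after si-mut and 45 after si-both. The share of all genes called in that fit was 19.9%, 43.8% and 53.8%. The main fit called 14, 44 and 70 of 458. Array weights gave 22 after si-WT and 26 between si-both and si-mut in place of 42, and fitting only the groups compared gave 19 for the latter; the cause was not tested. With the 75th percentile as the floor, 42 LINC genes in place of 157 were above it in any group. Leaving out 1 array in turn gave 5 to 15 LINC genes called after si-WT, 32 to 49 after si-mut, 54 to 74 after si-both, 38 to 55 between si-mut and si-WT, 55 to 73 between si-both and si-WT and 22 to 42 between si-both and si-mut. Of all genes, these fits called 6.16% to 10.9%, 20.8% to 26.4% and 29.3% to 33.6% in the comparisons with siCtrl. In the last 3 comparisons they called 26.8% to 31.9%, 32.4% to 36.2% and 17.4% to 22.6% of all genes. With the replicate block the LINC counts in the same order were 16, 51, 76, 57, 80 and 46, and the block moved no count by over 1.5 times. The shares of all genes called with the block were 11.2%, 27.0%, 35.0%, 32.2%, 37.8% and 23.7%. Without the first si-mut and si-both arrays, a choice made from earlier results of these data, the LINC counts were 12, 38, 73, 47, 69 and 37. The shares of all genes were then 10.5%, 23.4%, 32.6%, 28.8%, 35.1% and 19.5%. Of the named LINC genes, 4 of 14, 16 of 24, 25 of 30, 19 of 26, 28 of 34 and 11 of 19 kept their call in every alternative in which they were tested; 16 of the 53 named genes were too dim to enter the fit without dim genes. Signal over the floor limits the 301 LINC genes that never exceeded it, where RMA compresses differences.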

Other observations

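Genes on the list of other long non-coding RNAs above were not removed from the set described here, so the sets can overlap. It holds 93 long non-coding RNAs that have an older LINC name and were left out of the LINC genes by their present symbol. Of these, 7 (7.53%) were called after si-WT, 17 (18.3%) after si-mut and 20 (21.5%) after si-both, beside 10.2%, 25.6% and 33.6% of all genes, with medians of -0.01, 0.02 and 0.05 on the log2 scale.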
